A study of Solanum lycopersicum with 48 samples.

Results

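The comparison set leaves of the tomato cultivar Guizhen No.1 at day 7 against leaves of the same cultivar at day 1, both at 9 mM nitrogen. It used 6 of the 48 libraries of the series: day 7 replicates 1 to 3 and day 1 replicates 1 to 3, chosen by cultivar, organ, nitrogen level and day as the sample titles give them. Plants of both days were kept in a growth chamber with their roots in full-strength Hoagland nutrient solution, and the 9 mM level is the control of a low nitrogen study (1 mM). The series also holds leaves of Guozhen No.1, leaves at 1 mM and roots, and 24 of its libraries are from leaf. Neither the event that starts the day count, nor the leaf position, nor the time of day is stated, and it is not stated whether replicates of a day are separate plants. The p-values below therefore measure the spread between samples, which may be technical.

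A tomato leaf that gains photosynthetic capacity builds light-harvesting antennae, photosystems, chlorophyll and Rubisco, the enzyme that fixes carbon dioxide. Its nitrogen enters through plastid glutamine synthetase, while cytosolic glutamine synthetase, asparagine synthetase and glutamate dehydrogenase are known for moving and recycling nitrogen in older, stressed or carbon-poor tissue. Jasmonate and ethylene are the hormones of wounding and of several stresses, gibberellin and auxin those of growth, and tomato leaves answer wounding with proteins that disturb the digestion of insects.

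Expression is given in FPKM, in which a gene's fragments are divided by its length and by the size of the library. A log2 difference is the day 7 mean minus the day 1 mean of log2(FPKM + 1), with the standard error and Benjamini-Hochberg adjusted p of limma, so that a positive value means higher at day 7. The added 1 understates the change of weakly expressed genes. A gene was called higher or lower where the adjusted p was below 0.05. Counts for sub-groups of the gene lists below only describe them, since sub-groups were chosen after their values were seen. The deposited table gives locus numbers and no gene names. Symbols were therefore paired with published locus numbers and checked by chromosome and order against the supplied RefSeq gene table. Neighbouring copies of one family cannot be told apart in that way, and such copies are given by their locus number.

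The leaves of the 2 days differed over most of the genes tested. Of 19815 genes, 11857 (59.8%) were called, 3454 (17.4%) as higher at day 7 and 8403 (42.4%) as lower. At least a 2-fold difference was reached by 5436 of the called genes (27.4% of all tested), 1647 (8.31%) of them higher and 3789 (19.1%) lower. The values of the 6 libraries did not overlap between the days for 13052 genes (65.9%). The excess of lower calls depended on scaling. The median log2 difference of all genes tested was -0.29, and median-of-ratios scaling, which raised a gene's difference by 0.33 in the median, gave 5466 higher (27.6%) and 5628 lower genes (28.4%), 56% of all tested together. The share of calls that were higher was thus 29.1% without scaling and 49.3% with it, and differences near -0.3 are not read as changes of a single gene below.

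Columns summed to 683160 to 689680 FPKM at day 7 and 595575 to 620832 FPKM at day 1, with no read number for any library given in the sources used here. The 100 most abundant genes held 39.6 to 40.7% of the FPKM at day 7 and 19.8 to 21.7% at day 1. At least 1 FPKM was reached by 16983 to 17160 genes at day 7 and by 17550 to 17711 genes at day 1. Libraries of 1 day correlated at r = 0.966 to 0.975 within day 7 and 0.959 to 0.966 within day 1 over log2 values, against 0.757 to 0.824 between days. The leaf label held: Rubisco small subunits and plastid glutamine synthetase summed to 61424 to 66979 FPKM at day 7 and 10810 to 19125 FPKM at day 1. Of 3 markers of root uptake, the nitrate transporter LeNRT2.3 was listed at 0 in all 6 libraries and the phosphate transporter PT2 stayed at or below 0.0212 FPKM. The third, the phosphate transporter PT1, stood at 23.5, 37.4 and 17.7 FPKM at day 7 and at 381, 521 and 373 FPKM at day 1 and was called lower, by a log2 difference of -4.02 ± 0.50 (adjusted p = 1.52e-06).

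The genes of photosynthesis stood together at the upper end of the comparison. All antenna members tested (13 of 13), all photosystem and electron transport members (8 of 8) and all carbon fixation members (3 of 3) were higher at day 7, against 17.4% of all genes tested. Their median log2 differences were 2.76, 1.93 and 2.05, beside -0.29 for all genes tested. Together these 24 genes held 16.5 ± 0.836% of the FPKM at day 7 and 4.15 ± 0.474% at day 1 (SD, n = 3 each). FPKM are relative to the whole library, so a larger share of some genes can lower the values of others. Whether it did so here was not tested. In bulk tissue, fewer cells of a type and less RNA per cell cannot be told apart, for these and for all groups below.

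Among the antenna genes, which encode the chlorophyll-binding proteins that gather light, the 13 members summed to 36899 ± 353 FPKM at day 7 and 5956 ± 679 FPKM at day 1, a ratio of 6.19. The most abundant was CAB7, with 5904, 5822 and 5304 FPKM at day 7 and 1072, 1363 and 1228 FPKM at day 1. Every antenna member had non-overlapping libraries, with the lowest day 7 value above the highest day 1 value. Over all genes tested, the days did not overlap for 65.9%, in either direction. The steepest change was in the chromosome 2 cluster of near-identical Cab-1 genes, where the copy at Solyc02g070990 had 1512, 1206 and 1220 FPKM at day 7 and 11.1, 32.3 and 14.7 FPKM at day 1. Its log2 difference was 6.14 ± 0.56 (adjusted p = 3.57e-08). The copy at Solyc02g070940 differed less, with 4166, 4325 and 4615 FPKM at day 7 against 744, 1036 and 829 FPKM at day 1 (log2 difference 2.34 ± 0.51, adjusted p = 0.000635). Because counting may split reads between such copies, the 4 Cab-1 genes are best read by their sum, 9710 ± 320 FPKM at day 7 and 1198 ± 292 FPKM at day 1 (SD, n = 3 each). Among called loci whose days did not overlap and whose higher mean was at least 10 FPKM, the unnamed locus with the largest rise was Solyc02g070980. It lies between the Cab-1 genes by number, with means of 2220 ± 603 FPKM at day 7 and 44.4 ± 30.03 FPKM at day 1 (SD, n = 3 each, log2 difference 5.76 ± 0.54). CAB5, an antenna gene outside that cluster, had 1649, 1846 and 1480 FPKM at day 7 and 54.3, 66.5 and 26.6 FPKM at day 1. Cab-3, CAB13 and CAB-10 followed, with log2 differences of 3.39 ± 0.48, 2.81 ± 0.39 and 2.76 ± 0.30. CAB-8, with 3321, 3399 and 3374 FPKM at day 7 and 849, 647 and 661 FPKM at day 1, was the third most abundant member by its mean over all 6 libraries, and CAB6A, at 1.92 ± 0.34, had the smallest difference of the 13.

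Of the photosystem proteins, the copper protein plastocyanin (PETE), which carries electrons to photosystem I, had 4281, 4897 and 4501 FPKM at day 7 and 420, 511 and 654 FPKM at day 1. Its 3.13 ± 0.39 was the largest log2 difference of that list. Subunits of the oxygen-evolving complex were higher as well: PSBO with 1238, 1619 and 1515 FPKM at day 7 and 354, 353 and 326 FPKM at day 1, and PSBP and PsbQ with log2 differences of 1.88 ± 0.33 and 1.72 ± 0.33. The most abundant members of the list were PSBR, another photosystem II protein, with 7901, 7912 and 6505 FPKM at day 7 and 4127, 2743 and 2874 FPKM at day 1, and psaD, a subunit of photosystem I, with 5698, 5513 and 5059 FPKM at day 7 and 1411, 1394 and 1279 FPKM at day 1. PSBS, which triggers the release of excess light energy as heat, was 4.61 times as abundant at day 7 by its means. The early light-induced protein ELIP, known for its brief appearance under strong light, was the weakest, with 6.08, 14.7 and 11.8 FPKM at day 7 and 3.72, 4.84 and 9.15 FPKM at day 1. Its libraries overlapped, and the call was lost when any of 4 libraries was left out (day 7 replicate 2 or 3, day 1 replicate 1 or 2), with no filter on low values, and in a fit on the libraries of the comparison alone.

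RBCS3, a small subunit of Rubisco, was the most abundant member of all lists. It had 36481, 40235 and 33981 FPKM at day 7 and 6915, 8165 and 12463 FPKM at day 1, with day 1 replicate 3 the highest of its day. rbcS1 had a log2 difference of 2.47 ± 0.44 (adjusted p = 8.86e-05) and SBPASE, a Calvin cycle phosphatase, one of 1.64 ± 0.29. RBCS3, rbcS1 and PSBR likewise lost their call when no filter on low values was applied. Of 6 chlorophyll genes, 5 were higher, beside 17.4% of all genes, with a list median of 2.14. The Mg-cyclase subunit gene at103 had 1071, 1217 and 1205 FPKM at day 7 and 162, 202 and 180 FPKM at day 1 (log2 difference 2.68 ± 0.27, adjusted p = 1.29e-07). The protochlorophyllide reductases POR and POR2, which carry out the light-driven step of chlorophyll synthesis, were 4.80 and 4.08 times as abundant at day 7 by their means, and GSA-AT, an enzyme of the first steps towards chlorophyll, differed by 1.18 ± 0.27. The 2 GLK genes, which encode transcription factors of chloroplast development, parted. GLK2 had 6.91, 6.53 and 7.60 FPKM at day 7 and 0.305, 0.306 and 0.488 FPKM at day 1, a log2 difference of 2.55 ± 0.21 (adjusted p = 9.79e-09). GLK1 had 49.96, 44.6 and 38.9 FPKM at day 7 and 30.4, 32.7 and 45.3 FPKM at day 1, overlapped between the days and was not called (adjusted p = 0.401).

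**Figure D1:**
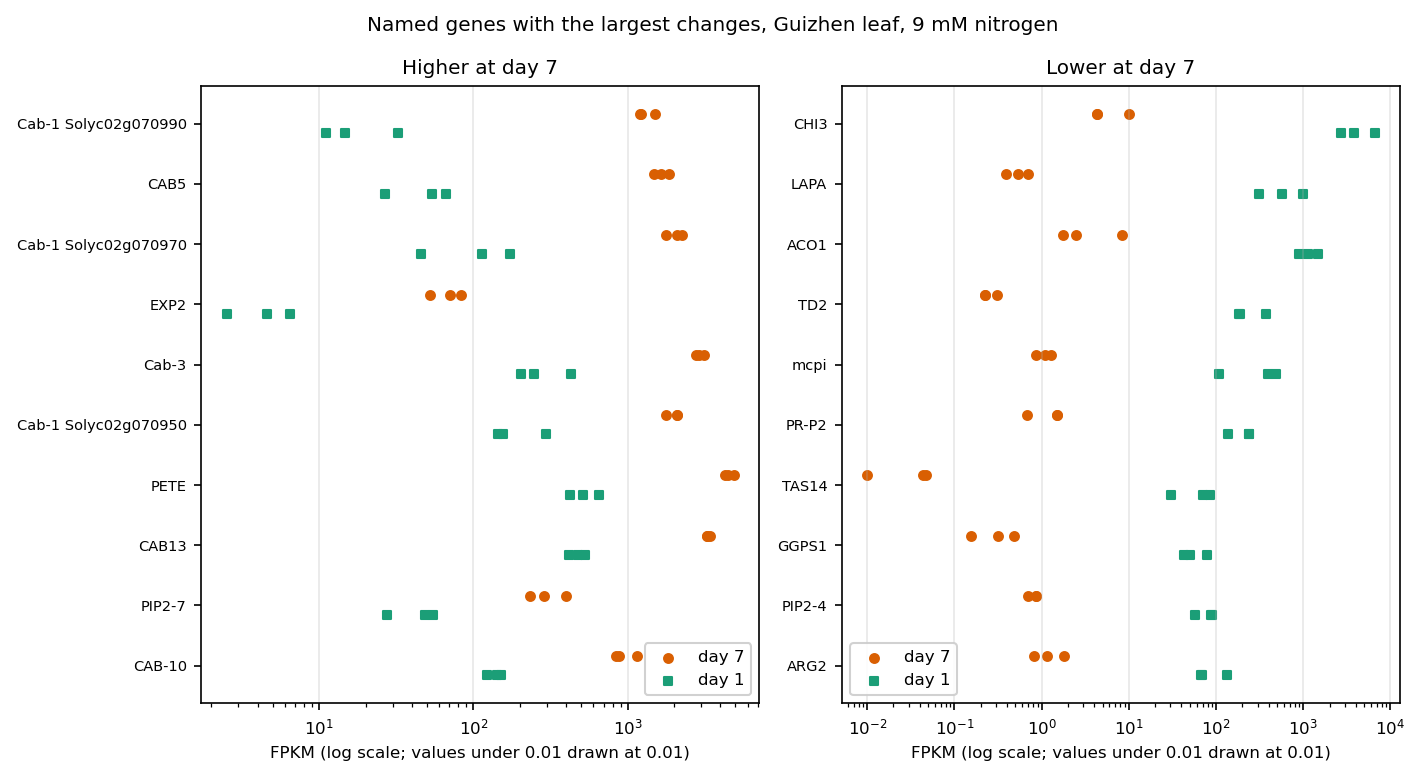
FPKM on a log axis of the named genes with the largest changes, 10 higher and 10 lower at day 7, in Guizhen leaf at 9 mM nitrogen. Orange circles are the 3 day 7 libraries and green squares the 3 day 1 libraries, values under 0.01 are drawn at 0.01, and the days do not overlap for any gene shown, as the rule for choosing them required.

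**Figure D2:**
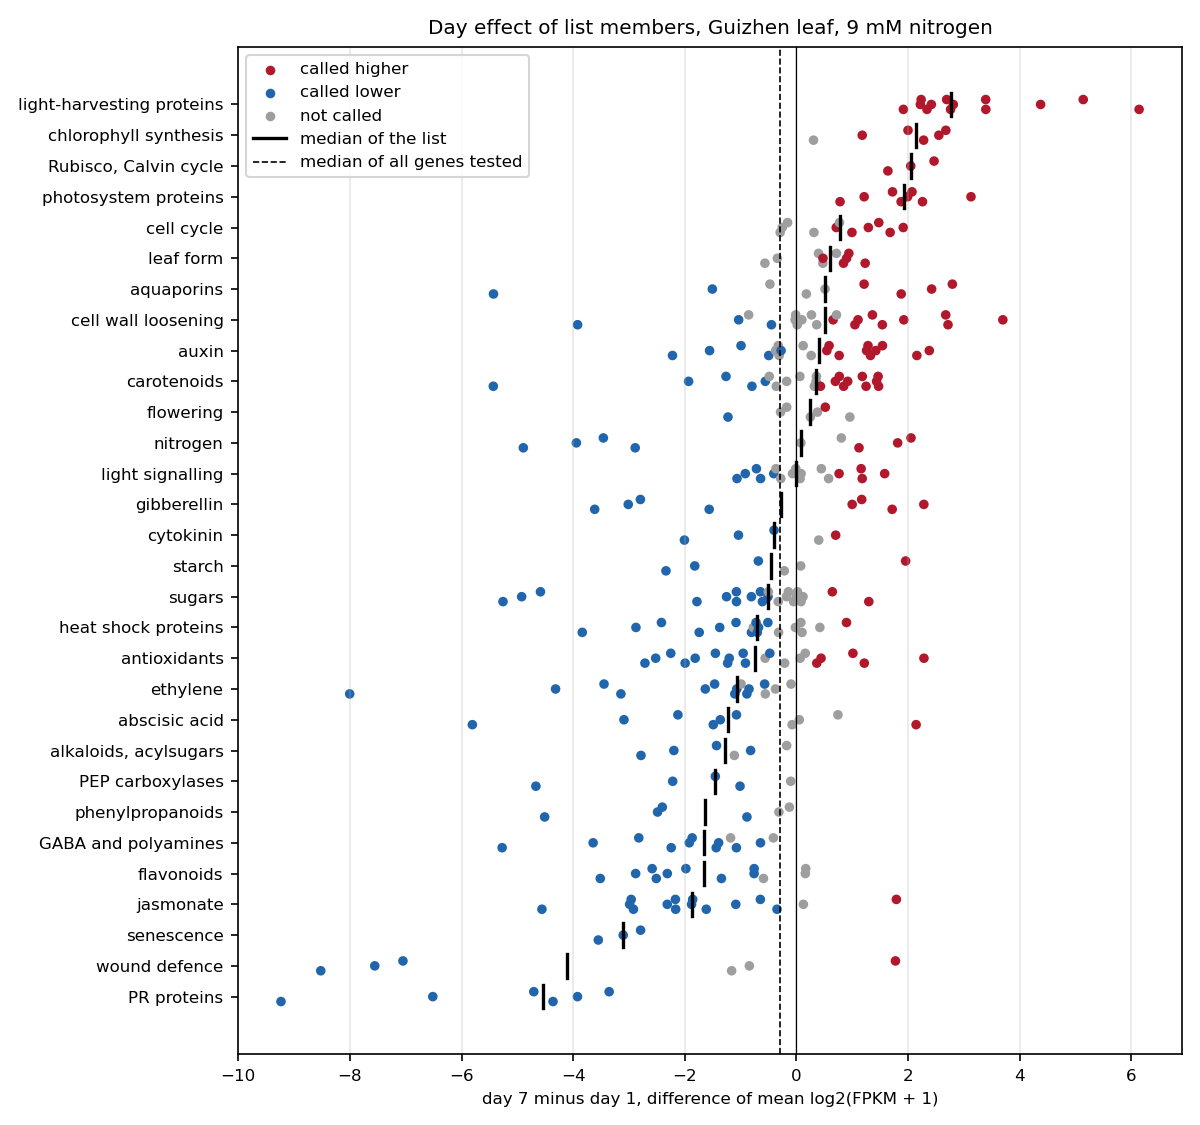
Day effect (day 7 minus day 1, difference of mean log2(FPKM + 1)) of every list member tested, 1 row a list, with called members in color and a bar at the median. Photosynthesis lists lie to the right with medians of 1.93 to 2.76, and the wound and pathogenesis-related lists to the left with medians of -4.11 and -4.53, beside -0.29 for all genes tested (dashed line).

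Nitrogen genes moved in both directions around a list median of 0.08. Of 9 members tested, 3 were higher and 4 lower, beside 17.4% and 42.4% of all genes. Plastid glutamine synthetase (GS2), which reassimilates the ammonium of photorespiration in leaves, had 1592, 1521 and 1439 FPKM at day 7 and 344, 391 and 592 FPKM at day 1 (log2 difference 1.81 ± 0.32, adjusted p = 7.34e-05). Cytosolic glutamine synthetase (GS1) went the other way, with 56.7, 56.3 and 51.8 FPKM at day 7 and 361, 432 and 452 FPKM at day 1 (log2 difference -2.89 ± 0.30, adjusted p = 1.86e-07). GS2 was thus the more abundant of the pair at day 7, and at day 1 their libraries overlapped in level, with both given per kilobase. Asparagine synthetase (AS1) had 0.849, 0.547 and 0.376 FPKM at day 7 and 66.4, 89.1 and 16.02 FPKM at day 1, the largest fall of the list at -4.89 ± 0.69. Glutamate dehydrogenase (gdh1) had 10.5, 16.8 and 14.3 FPKM at day 7 and 189, 200 and 108 FPKM at day 1 (log2 difference -3.46 ± 0.34, adjusted p = 8.76e-08).

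The ammonium transporters split as well. AMT1-1 had 6.92, 20.3 and 5.27 FPKM at day 7 and 146, 163 and 159 FPKM at day 1, a log2 difference of -3.94 ± 0.45 (adjusted p = 6.17e-07). AMT1-2 had 10.7, 21.0 and 9.73 FPKM at day 7 and 0.949, 4.31 and 2.72 FPKM at day 1 and was called higher (2.05 ± 0.39, adjusted p = 0.000165). For both genes day 7 replicate 2 was the highest of its day, and neither overlapped between days. AMT1-3 was not called (adjusted p = 0.0541), and was called higher under scaling. Of the enzymes of nitrate reduction, nitrite reductase (nii1) was called higher at 1.12 ± 0.31 although day 1 replicate 3, at 80.9 FPKM, reached the range of day 7 (80.8 to 128 FPKM). Nitrate reductase (NIA) was not called, with 216, 229 and 203 FPKM at day 7 and 146, 167 and 348 FPKM at day 1, the last of them apart from the rest.

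**Figure D3:**
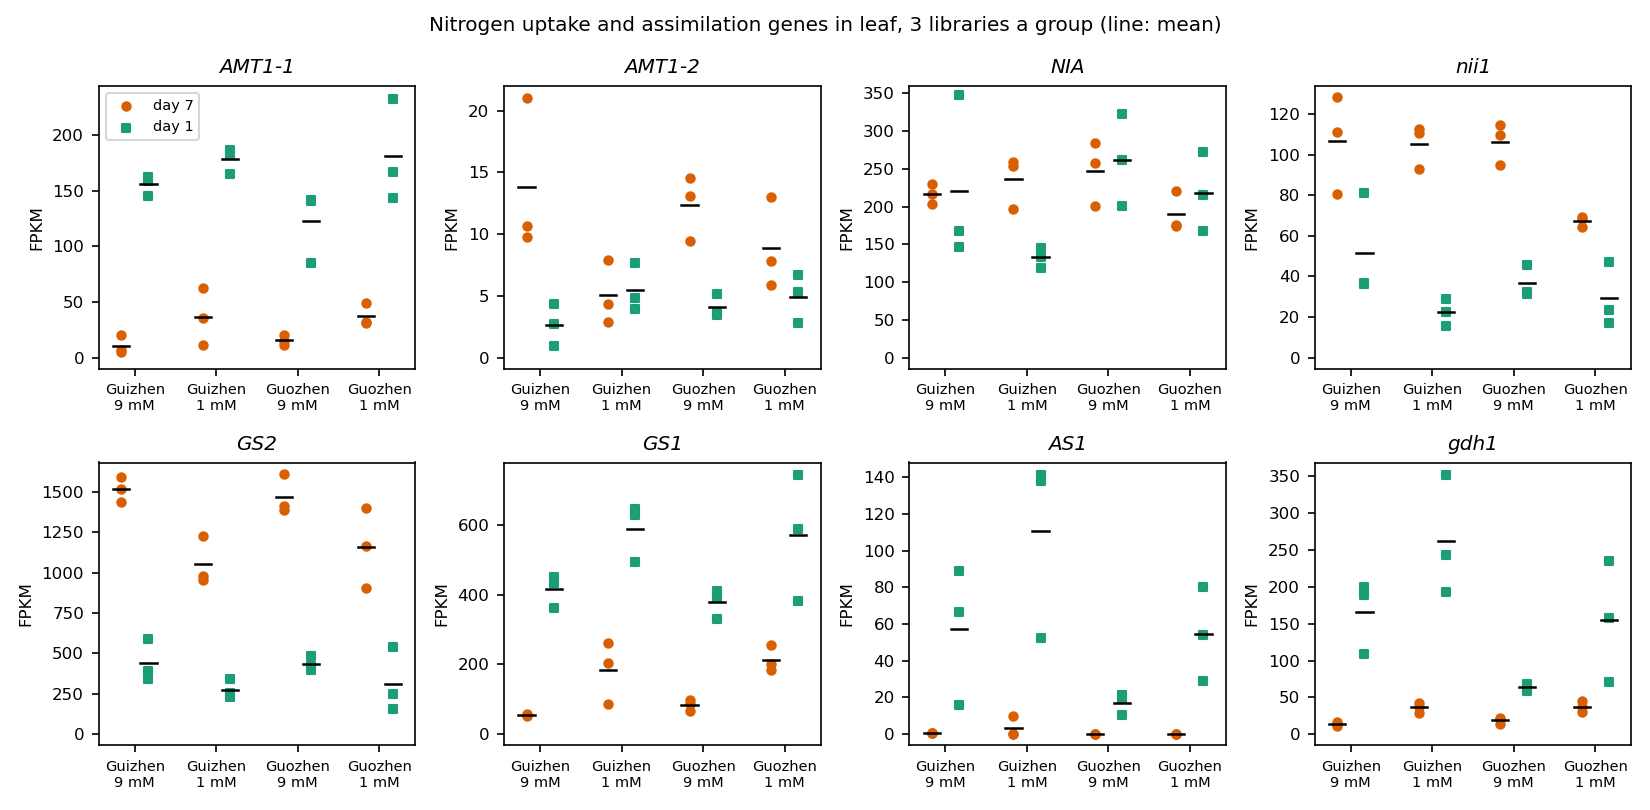
FPKM of 8 nitrogen genes in the 3 libraries of each leaf group (day 7 left in orange, day 1 right in green, line at the mean), for both cultivars at 9 and 1 mM nitrogen. In Guizhen at 9 mM, AMT1-2, nii1 and GS2 were higher at day 7, AMT1-1, GS1, AS1 and gdh1 were lower, and NIA overlapped.

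Genes of GABA, polyamine and proline metabolism were lower in 10 of 12 members and higher in none, with a median of -1.65 beside -0.29 for all genes and with 42.4% of all genes called lower. Glutamate decarboxylase GAD2, which makes the amino acid GABA from glutamate, had 223, 287 and 163 FPKM at day 7 and 744, 878 and 786 FPKM at day 1 (log2 difference -1.87 ± 0.25). GABA transaminase (GABA-TP1), which breaks GABA down, differed by -3.64 ± 0.36 (adjusted p = 8.71e-08), while the decarboxylase GAD and the dehydrogenase SSADH were not called. All 6 polyamine members were lower. They include arginine decarboxylase adc1 at -2.82 ± 0.24 and S-adenosylmethionine decarboxylase (SAMDC) at -2.24 ± 0.26, both of which feed polyamine synthesis. Arginase ARG2, known in tomato as a wound-induced enzyme, fell most, with 1.83, 0.819 and 1.14 FPKM at day 7 and 66.8, 134 and 68.7 FPKM at day 1 (-5.27 ± 0.52, adjusted p = 1.14e-07). Its neighbour ARG1 differed by -1.39 ± 0.23.

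Of 5 phosphoenolpyruvate carboxylases, which replenish the carbon skeletons used for amino acids, 4 were lower, beside 42.4% of all genes. Under scaling 3 were lower, beside 28.4% of all genes. PEPC2 was the most abundant of them at day 1, with 57.5, 47.4 and 56.2 FPKM at day 7 and 170, 305 and 310 FPKM at day 1. PEPC1 was nearly lost, at 0.442, 0.144 and 0.263 FPKM at day 7 and 25.2, 20.5 and 59.8 FPKM at day 1 (log2 difference -4.67 ± 0.45). PPC1 was not called, with 58.5, 62.0 and 60.4 FPKM at day 7 and 64.8, 55.7 and 75.2 FPKM at day 1, so PEPC2 and PPC1 stood at like levels at day 7. The weakly expressed ppc2 had 0.0255, 0.0237 and 0.0146 FPKM at day 7 and 1.43, 1.27 and 2.96 FPKM at day 1 and was lower. PEPC4 lost its call under scaling and without day 7 replicate 1 or day 1 replicate 2 or 3.

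Of all list members tested, the defence proteins CHI3 and LAPA showed the largest falls. All 6 pathogenesis-related members were lower, beside 42.4% of all genes, with a median of -4.53. The chitinase CHI3 had 4.30, 10.1 and 4.34 FPKM at day 7 and 3851, 6576 and 2712 FPKM at day 1, a log2 difference of -9.24 ± 0.56 (adjusted p = 2.30e-10). Its neighbour CHI17, whose reads may be shared with it, differed by -3.36 ± 0.46. The basic chitinase CHI9 and the osmotin NP24-I, both vacuolar proteins that attack or perturb fungi, were less even at day 7. CHI9 had 54.0, 323 and 21.4 FPKM at day 7 and 1783, 1536 and 1265 FPKM at day 1, and NP24-I had 19.5, 236 and 5.64 FPKM at day 7 and 508, 637 and 346 FPKM at day 1. In both genes day 7 replicate 2 stood apart, below every day 1 library. PR-P2, a further pathogenesis-related protein, had 1.49, 1.48 and 0.685 FPKM at day 7 and 238, 240 and 138 FPKM at day 1 (log2 difference -6.52 ± 0.30, adjusted p = 5.93e-12). CHI14, another chitinase, had 0, 0.235 and 0.0983 FPKM at day 7 and 28.4, 26.8 and 28.5 FPKM at day 1. Among called genes with a locus number, no overlap of days and a higher mean of at least 10 FPKM, the unnamed Solyc00g174340 fell most, at -9.27 ± 0.93. It had 11.4, 23.6 and 3.64 FPKM at day 7 and 14411, 6716 and 3425 FPKM at day 1.

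Of the 6 wound-induced defence members, 3 were lower and 1 was higher, near the 42.4% and 17.4% of all genes. The list median was -4.11. The leucine aminopeptidase LAPA had 0.540, 0.699 and 0.391 FPKM at day 7 and 578, 1005 and 310 FPKM at day 1 (log2 difference -8.52 ± 0.62, adjusted p = 2.17e-09). Threonine deaminase TD2, which removes an essential amino acid in the gut of caterpillars, had 0.306, 0.223 and 0.223 FPKM at day 7 and 190, 372 and 181 FPKM at day 1. The metallocarboxypeptidase inhibitor mcpi had 0.873, 1.29 and 1.096 FPKM at day 7 and 485, 391 and 109 FPKM at day 1. In these 3 genes no day 7 library exceeded 1.29 FPKM and no day 1 library was below 109 FPKM. The polyphenol oxidases did not share that fall. The copy at Solyc08g074620 was higher, with 29.1, 28.2 and 66.0 FPKM at day 7 and 12.8, 11.7 and 7.39 FPKM at day 1, and 2 further copies were not called. These are neighbouring copies, and counting may split reads between them. The 12 members of both defence lists together held 0.0422 ± 0.0414% of the FPKM at day 7 and 1.32 ± 0.465% at day 1 (SD, n = 3 each).

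Jasmonate genes were lower in 13 of 15 members tested and higher in 1, beside 42.4% and 17.4% of all genes. All 6 members of the synthesis branch were lower, from loxD, the lipoxygenase that opens jasmonate synthesis, to the peroxisomal oxidase Acx1A, with log2 differences of -2.99 to -1.86. Allene oxide cyclase (AOC) had 34.4, 34.2 and 32.6 FPKM at day 7 and 107, 273 and 173 FPKM at day 1. The repressor JAZ2, itself a jasmonate-induced gene, had 3.76, 3.53 and 3.82 FPKM at day 7 and 91.8, 166 and 86.9 FPKM at day 1 (log2 difference -4.56 ± 0.41, adjusted p = 3.41e-08). The transcription factor MYC2, which switches on wound genes, had 19.7, 19.6 and 16.9 FPKM at day 7 and 50.2, 63.9 and 65.2 FPKM at day 1. The receptor COI1 was called lower at -0.35 ± 0.08, a difference close to the median of all genes that came to 0.0028 under scaling. The lipoxygenase loxF, the most abundant of the list at day 1, had 63.9, 110 and 61.3 FPKM at day 7 and 391, 394 and 259 FPKM at day 1. The exception was loxC, a lipoxygenase of leaf and fruit volatiles, with 15.1, 29.0 and 22.9 FPKM at day 7 and 3.30, 7.15 and 6.95 FPKM at day 1 (1.79 ± 0.42, adjusted p = 0.00128). Hydroperoxide lyase (HPL), which acts on the products of such enzymes, overlapped between the days. LOXB was listed at 0 in all 3 day 7 libraries, and was not tested.

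Of the chlorophyll breakdown and senescence genes, 3 of 3 were lower, beside 42.4% of all genes. The stay-green gene SGR1, whose protein removes magnesium from chlorophyll, had 3.82, 7.52 and 5.81 FPKM at day 7 and 52.5, 47.2 and 35.0 FPKM at day 1. The NAC transcription factors NAP1 and NAP2, known as promoters of leaf senescence, differed by -3.10 ± 0.43 and -3.55 ± 0.34 (adjusted p = 5.34e-06 and 7.11e-08). The days did not overlap for these genes, as for 65.9% of all genes tested.

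Ethylene genes were lower in 11 of 15 members tested and higher in none, beside 42.4% of all genes called lower. Under scaling 9 were lower, beside 28.4% of all genes. ACC oxidase ACO1, which forms ethylene in the last step of its synthesis, had 2.45, 8.32 and 1.75 FPKM at day 7 and 1142, 1479 and 886 FPKM at day 1 (log2 difference -8.01 ± 0.47, adjusted p = 1.28e-10). ACO6 was the most abundant member at day 7, with 261, 326 and 236 FPKM at day 7 against 520, 480 and 472 FPKM at day 1, and its call was lost under scaling. ACO4, next in level, overlapped between the days and was not called. ACC synthase ACS2 had 0, 0.0204 and 0 FPKM at day 7 and 25.98, 15.1 and 17.6 FPKM at day 1, and was called lower, while ACS4 and ACS6 were at or near 0 on both days. Of 7 receptors, 5 were lower. ETR4 had 1.00, 0.600 and 0.915 FPKM at day 7 and 14.2, 15.6 and 15.8 FPKM at day 1 (-3.15 ± 0.28), and ETR6, the least abundant receptor, was not called. The signalling kinase CTR1 and the membrane protein EIN2, which act below the receptors, were lower as well, with ratios of day 7 to day 1 means of 0.289 and 0.449.

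Of 8 gibberellin genes tested, 4 were higher and 4 lower, beside 17.4% and 42.4% of all genes. A further 5 members, 4 of them genes of synthesis, were too low to test. GA20OX1, an oxidase of the later steps, had 20.9, 21.8 and 22.5 FPKM at day 7 and 7.38, 7.58 and 13.3 FPKM at day 1. In the next step 3OH-2, which makes the active hormone, had 4.09, 3.84 and 4.98 FPKM at day 7 and 0.0400, 0.0517 and 0.165 FPKM at day 1. A further oxidase of synthesis, 20ox-2, differed by 1.72 ± 0.26. GA2ox3, an inactivating oxidase, was lower, at 0.0371, 0.0355 and 0.151 FPKM at day 7 and 5.45, 9.37 and 5.18 FPKM at day 1. The DELLA repressor GAI was higher, with 96.1, 82.8 and 107 FPKM at day 7 and 42.1, 40.1 and 60.8 FPKM at day 1. All 3 receptors, which mark DELLA proteins for destruction once gibberellin is bound, were lower. GID1b-1 had 0.825, 0.971 and 1.47 FPKM at day 7 and 18.0, 27.0 and 29.7 FPKM at day 1 (log2 difference -3.61 ± 0.25, adjusted p = 1.07e-09). GID1b-2, the most abundant of the 3, had 5.42, 5.15 and 3.87 FPKM at day 7 and 47.5, 42.3 and 47.2 FPKM at day 1. The receptors summed to 9.41 ± 0.52 FPKM at day 7 and 83.0 ± 9.08 FPKM at day 1 (SD, n = 3 each).

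**Figure D4:**
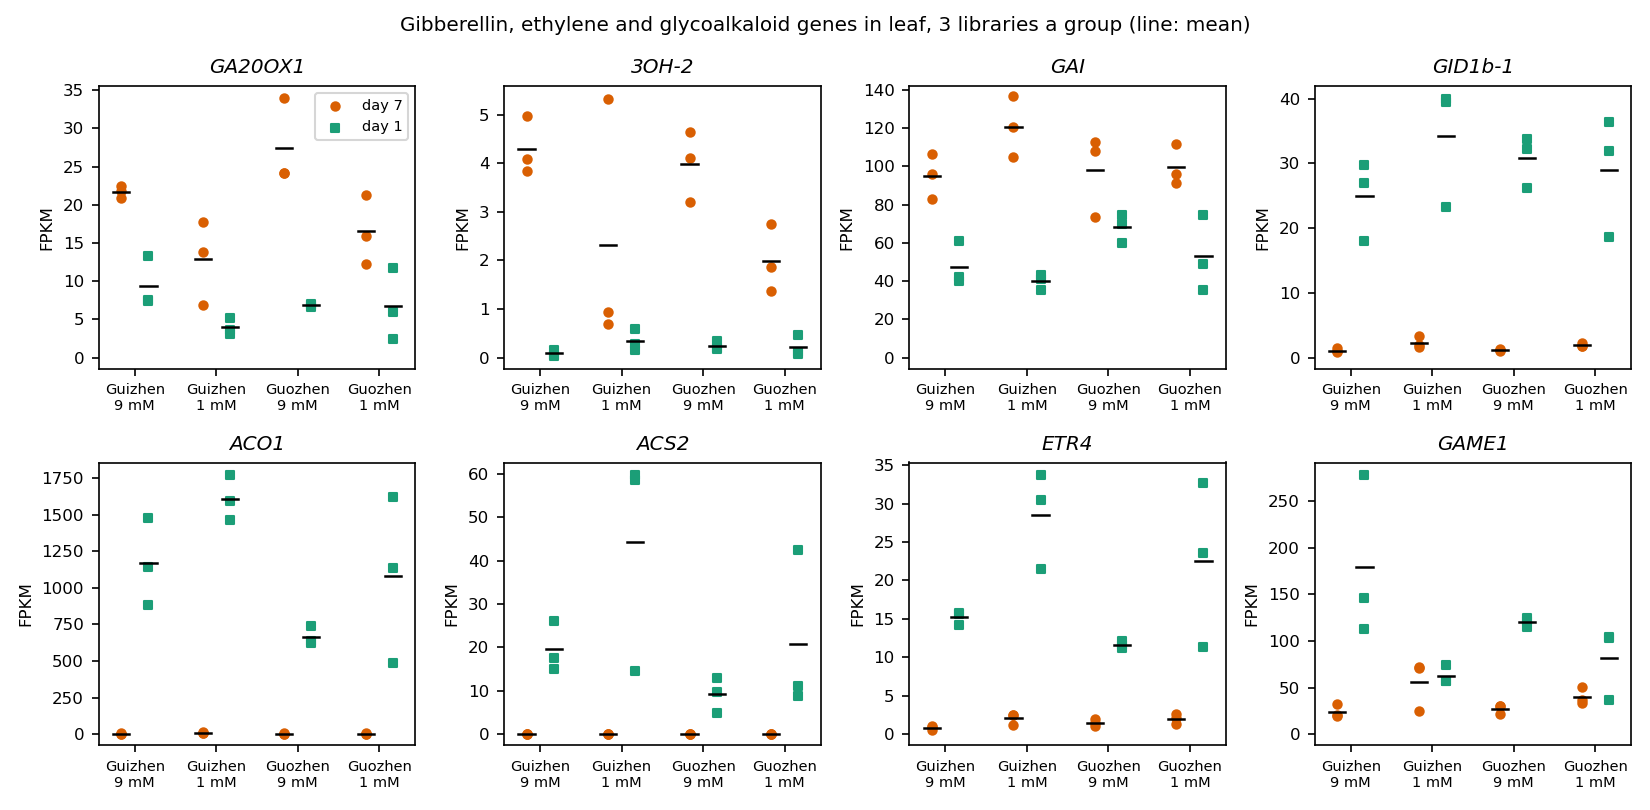
FPKM of 3 gibberellin genes and a gibberellin receptor, 3 ethylene genes and the glycoalkaloid gene GAME1 in the 3 libraries of each leaf group (day 7 left in orange, day 1 right in green, line at the mean). In Guizhen at 9 mM, GA20OX1, 3OH-2 and GAI were higher at day 7 and GID1b-1, ACO1, ACS2, ETR4 and GAME1 lower. GAME1 overlapped between days at 1 mM in Guizhen.

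Auxin genes were higher in 10 of 20 members tested and lower in 5, beside 17.4% and 42.4% of all genes, with a median of 0.41. The Aux/IAA genes, which encode repressors of auxin response and are often auxin-induced, divided by member, with 6 of 14 higher and 5 lower. IAA7 had 15.9, 11.5 and 16.6 FPKM at day 7 and 1.995, 1.51 and 2.51 FPKM at day 1 (log2 difference 2.38 ± 0.19, adjusted p = 7.06e-09), and its neighbour IAA4 differed by 2.16 ± 0.15. IAA15 fell, with 8.15, 7.68 and 6.32 FPKM at day 7 and 45.6, 35.1 and 34.0 FPKM at day 1. IAA9 and IAA16 were the most abundant. IAA16 rose by 1.28 ± 0.26, and IAA9, known in tomato for leaf shape and fruit set, was called lower at -0.50 ± 0.17, with overlapping libraries and a call that ended under scaling and without day 7 replicate 2 or day 1 replicate 1 or 3. The PIN carriers, which move auxin out of cells, were higher in 4 of 6 tested. PIN4, the most abundant carrier, was not called.

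Abscisic acid genes were lower in 6 of 10 members and higher in 1, beside 42.4% and 17.4% of all genes. The one that rose was ZEP, zeaxanthin epoxidase, which also belongs to the xanthophyll cycle of chloroplasts, with 186, 180 and 131 FPKM at day 7 and 41.1, 32.3 and 36.0 FPKM at day 1 (log2 difference 2.15 ± 0.17, adjusted p = 9.43e-09). NCED1, the rate-limiting dioxygenase of abscisic acid synthesis, overlapped and was not called. AREB1, a transcription factor of abscisic acid response, had 2.59, 3.31 and 2.34 FPKM at day 7 and 17.5, 14.8 and 13.6 FPKM at day 1. The dehydrin TAS14, a protein of drought and salt stress, had 0.0467, 0.0434 and 0 FPKM at day 7 and 70.07, 84.7 and 30.5 FPKM at day 1. The late embryogenesis protein LE25 was listed at 0 in all day 7 libraries and had 6.001, 28.1 and 2.03 FPKM at day 1. ASR1, another dehydration gene, showed no shared change: it had 77.6, 81.3 and 479 FPKM at day 7 and 166, 62.9 and 60.8 FPKM at day 1, and its highest value came from day 7 replicate 3. Of the 5 cytokinin genes tested, 3 were lower and 1 higher, beside 42.4% and 17.4% of all genes. Under scaling 2 were lower and 1 higher, beside 28.4% and 27.6% of all genes. The synthesis gene IPT3 (-1.04 ± 0.29) and the breakdown genes CKX4 (-2.01 ± 0.44) and CKX2 were lower, and CKX1, another breakdown gene, was higher at 0.70 ± 0.25. The calls of CKX1 and CKX2 each ended when single libraries were left out, for CKX1 day 7 replicate 2 or day 1 replicate 2, and for CKX2 day 7 replicate 1 or 3 or day 1 replicate 1, and that of CKX2 also under scaling.

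Flavonoid genes were lower in 9 of 12 members tested and higher in none, beside 42.4% of all genes called lower, with a median of -1.66. Under scaling 6 were lower and 1 was higher, beside 28.4% and 27.6% of all genes. The fall was steepest in the late branch that leads to anthocyanins, a sub-group chosen after its values were seen. Its 6 members were all lower and summed to 12.0 ± 3.22 FPKM at day 7 and 118 ± 53.2 FPKM at day 1 (SD, n = 3 each). The regulator MYB75, which activates that branch, had 1.44, 2.69 and 1.22 FPKM at day 7 and 16.4, 24.7 and 65.6 FPKM at day 1 (log2 difference -3.51 ± 0.59, adjusted p = 4.43e-05). Dihydroflavonol reductase (DFR) had 0.567, 1.099 and 0.913 FPKM at day 7 and 5.70, 9.83 and 15.0 FPKM at day 1. In both genes day 1 replicate 3 was the highest, and no day 7 library reached day 1. The early enzymes moved less. The chalcone synthase CHS2 overlapped and was not called, and the chalcone isomerase CHI1 was called lower with overlapping libraries, a call lost under scaling and without day 7 replicate 1 or 2 or day 1 replicate 3. Of 6 phenylpropanoid members, 4 were lower, beside 42.4% of all genes, and 4 under scaling, beside 28.4%. Phenylalanine ammonia-lyase PAL2, which draws phenylalanine into the pathway, had 3.23, 6.22 and 4.11 FPKM at day 7 and 117, 151 and 103 FPKM at day 1 (-4.51 ± 0.36, adjusted p = 7.65e-09). PAL5 and 4CL, the next enzyme but one, differed by -2.49 ± 0.41 and -2.40 ± 0.24. The transferase hqt of chlorogenic acid synthesis differed by -0.89 ± 0.17. The lignin genes CCR1 and CCR2 were not called.

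Steroidal glycoalkaloids, the bitter nitrogen-containing defence compounds of tomato leaves, are made by the GAME enzymes. Of 6 members tested, 4 were lower, beside 42.4% of all genes, and 3 under scaling, beside 28.4%. GAME1, the first glycosyltransferase, had 32.4, 20.3 and 19.2 FPKM at day 7 and 113, 146 and 279 FPKM at day 1 (log2 difference -2.78 ± 0.40, adjusted p = 9.76e-06). GAME6 and GAME4, oxidases of the cholesterol-derived skeleton, differed by -2.20 ± 0.42 and -1.43 ± 0.29. GAME17 was lower at -0.82 ± 0.29, lost under scaling and without day 7 replicate 2 or 3 or day 1 replicate 3. JRE4, an ERF transcription factor of this pathway, did not pass (adjusted p = 0.338), with 23.9, 17.3 and 15.1 FPKM at day 7 and 34.1, 33.0 and 60.8 FPKM at day 1.

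Sugar genes were lower in 11 of 22 members tested, near the 42.4% of all genes called lower, and higher in 2, beside 17.4% called higher. Under scaling 7 were lower and 3 higher, beside 28.4% and 27.6% of all genes. The members that fell most share no single step. Sucrose synthase sus3, which splits sucrose, had 3.22, 3.45 and 3.26 FPKM at day 7 and 164, 246 and 109 FPKM at day 1 (log2 difference -5.26 ± 0.32, adjusted p = 2.27e-10). The hexose transporter HT2 had 4.53, 7.19 and 4.07 FPKM at day 7 and 152, 252 and 165 FPKM at day 1, and the cell wall invertase Wiv-1, known for its response to wounding, 2.70, 7.29 and 4.12 FPKM at day 7 and 140, 148 and 102 FPKM at day 1. The cell wall invertase LIN8 was higher, with 15.99, 18.9 and 13.6 FPKM at day 7 and 4.65, 4.70 and 9.29 FPKM at day 1. The sucrose transporter SUT1, which loads the phloem, was the most abundant member and was not called. Of 6 starch genes, AGPL3, a large subunit of ADP-glucose pyrophosphorylase, was higher, with 167, 184 and 172 FPKM at day 7 and 35.0, 47.5 and 51.4 FPKM at day 1 (1.96 ± 0.20, adjusted p = 1.85e-07). The large subunit AgpL1 was lower, with 13.4, 13.1 and 10.9 FPKM at day 7 and 28.7, 59.5 and 172 FPKM at day 1. The starch synthase GBSS1 and the beta-amylase BMY3 also had their highest value in day 1 replicate 3, and of these BMY3 was called lower (-1.82 ± 0.33). AGP-S2, the small subunit of the pyrophosphorylase, was lower at -0.68 ± 0.15, and GWD, a kinase that starts starch breakdown, overlapped.

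Cell cycle genes were higher in 6 of 11 members and lower in none, against 17.4% of all genes called higher. A sub-group of mitosis, 2 B-type kinases and 3 A- and B-type cyclins, was chosen after its values were seen. Its 5 members were all higher and summed to 49.8 ± 5.31 FPKM at day 7 and 13.6 ± 4.21 FPKM at day 1 (SD, n = 3 each). CycA2 had 15.5, 13.7 and 17.0 FPKM at day 7 and 2.45, 4.67 and 3.18 FPKM at day 1 (log2 difference 1.91 ± 0.30, adjusted p = 2.64e-05), and CDKB2 had 18.0, 13.5 and 16.3 FPKM at day 7 and 3.63, 5.72 and 3.67 FPKM at day 1. The D-type cyclin CYCD3, which acts at the entry into the cycle, was the sixth, at 0.71 ± 0.20. The kinase CDKA1, present in all cells, the retinoblastoma gene RBR1 and ccs52A, an activator of cycles without division, were not called. Of 10 leaf form genes tested, 5 were higher and none lower, beside 17.4% and 42.4% of all genes. TCP3, a transcription factor of the family of lanceolate, had 148, 145 and 158 FPKM at day 7 and 70.17, 45.9 and 78.7 FPKM at day 1, and T6, a meristem homeobox gene that also shapes compound leaves, differed by 0.84 ± 0.26. YABBY5a, of a family that marks the lower face of leaves, had 27.5, 21.2 and 29.3 FPKM at day 7 and 11.7, 9.89 and 20.4 FPKM at day 1, while YABBY5B was not called (adjusted p = 0.0536). The meristem genes KN1 and LS were listed at 0 in all 6 libraries, and WUS was at or below 0.0973 FPKM. The gene lanceolate was not called: day 7 replicate 1, at 0.124 FPKM, stood apart from the 26.3 and 35.4 FPKM of its day, and day 1 had 9.70, 12.1 and 15.2 FPKM.

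Cell wall loosening genes were higher in 9 of 20 members tested and lower in 3, beside 17.4% and 42.4% of all genes. The expansin EXP2 had 70.8, 52.6 and 82.8 FPKM at day 7 and 2.52, 6.49 and 4.59 FPKM at day 1 (log2 difference 3.70 ± 0.43, adjusted p = 7.39e-07). The expansin EXP1, known for its role in ripening fruit, moved against it, with 0.569, 0.426 and 0.392 FPKM at day 7 and 15.6, 30.3 and 19.9 FPKM at day 1 (-3.92 ± 0.29). Of the xyloglucan endotransglucosylases, which cut and rejoin wall polymers, XTH7 had 130, 124 and 130 FPKM at day 7 and 10.2, 27.1 and 25.2 FPKM at day 1, and XTH1 differed by 2.72 ± 0.29. XTH16, the most abundant, was called higher, and its call ended without day 7 replicate 3 or day 1 replicate 1. XTH5 was not called. Among 9 aquaporins tested, 4 were higher and 2 lower, beside 17.4% and 42.4% of all genes. PIP2-7 had 285, 231 and 398 FPKM at day 7 and 27.7, 48.4 and 55.0 FPKM at day 1 (2.79 ± 0.42, adjusted p = 1.33e-05). PIP2-4 had 0.858, 0.692 and 0.871 FPKM at day 7 and 57.4, 90.9 and 86.4 FPKM at day 1 (-5.43 ± 0.25, adjusted p = 6.86e-12). Both encode water channels of the plasma membrane, and the tonoplast channel TIP2-2 overlapped. PIP1-3, the most abundant channel of the list at day 7, had 376, 384 and 505 FPKM at day 7 and 167, 157 and 221 FPKM at day 1, and PIP2-6 was not called.

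Carotenoid genes were higher in 10 of 22 members tested and lower in 5, beside 17.4% and 42.4% of all genes, with a median of 0.36. DXS, which opens the plastid isoprenoid pathway, had 127, 129 and 120 FPKM at day 7 and 48.5, 47.2 and 39.1 FPKM at day 1 (log2 difference 1.46 ± 0.18, adjusted p = 1.41e-06). The hydroxylase CYP97C11, needed for the leaf pigment lutein, and the cyclase CRTL-E-1 of the same branch differed by 1.47 ± 0.21 and 1.25 ± 0.24. HDS and HDR, the last enzymes of the isoprenoid pathway, did not share the rise: HDS was called lower at -0.56 ± 0.18, a call lost under scaling and without day 7 replicate 1, and HDR overlapped. The 2 phytoene synthases parted. PSY2, the leaf form, was higher, with 52.3, 56.3 and 50.01 FPKM at day 7 and 19.2, 25.1 and 49.98 FPKM at day 1, a call that ended without day 1 replicate 1. Psy1, the fruit form, was lower, with 7.65, 9.45 and 7.81 FPKM at day 7 and 17.5, 29.5 and 77.2 FPKM at day 1. The geranylgeranyl diphosphate synthases parted as well: GGPS1, known as wound-induced in tomato leaves, had 0.485, 0.319 and 0.155 FPKM at day 7 and 43.3, 79.6 and 49.8 FPKM at day 1 (-5.43 ± 0.39, adjusted p = 1.81e-09), whereas GGPS2 differed by 1.44 ± 0.18.

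Antioxidant genes were lower in 11 of 20 members and higher in 5, beside 42.4% and 17.4% of all genes. Among those that rose, the plastid superoxide dismutase SODCP.2 had 36.2, 28.5 and 39.9 FPKM at day 7 and 6.26, 6.48 and 6.14 FPKM at day 1 (log2 difference 2.29 ± 0.27, adjusted p = 8.97e-07), and the catalase CAT2 and the dehydroascorbate reductase DHAR2 differed by 1.01 ± 0.23 and 1.22 ± 0.29. Of 8 enzymes of the ascorbate cycle, which detoxifies hydrogen peroxide, 6 were lower. APX1, a cytosolic ascorbate peroxidase, had 216, 243 and 259 FPKM at day 7 and 1025, 1221 and 1186 FPKM at day 1, and the glutathione reductase GR1 had 23.7, 26.1 and 18.5 FPKM at day 7 and 142, 174 and 146 FPKM at day 1 (-2.71 ± 0.20, adjusted p = 2.70e-09). The plastid form GR was called higher at 0.37 ± 0.11, ending without day 1 replicate 1. FESOD, an iron superoxide dismutase, was lower, with 217, 245 and 118 FPKM at day 7 and 629, 779 and 821 FPKM at day 1. The catalase cat1, the most abundant of the list, was called lower (-1.20 ± 0.39), which ended under scaling and without day 7 replicate 3 or day 1 replicate 1.

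Heat shock genes were lower in 11 of 18 members tested and higher in 1, beside 42.4% of all genes called lower and 17.4% called higher. HSTF24, a heat stress factor, had 4.40, 6.31 and 5.37 FPKM at day 7 and 84.2, 108 and 78.6 FPKM at day 1 (log2 difference -3.84 ± 0.28, adjusted p = 2.70e-09). The chaperone BiP/grp78 of the endoplasmic reticulum had 44.4, 34.7 and 46.0 FPKM at day 7 and 217, 275 and 192 FPKM at day 1. The small chloroplast protein HSP21 was the member that rose, by 0.90 ± 0.19, from low levels (1.67 to 2.40 FPKM at day 7, 0.506 to 0.770 FPKM at day 1). The disaggregase HSP100/CLPB, a marker of heat itself, was not called, with 15.7, 17.1 and 15.6 FPKM at day 7 and 18.6, 13.6 and 17.2 FPKM at day 1. HSC80, a cytosolic chaperone and the most abundant of the list, was lower at -0.81 ± 0.24, a call that scaling ended. Scaling left 7 lower calls in the list, beside 28.4% of all genes.

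Photoreceptors and light signalling genes had a median of -0.01, with 4 of 17 higher and 5 lower, beside 17.4% and 42.4% of all genes. Under scaling 9 were higher and 2 lower, beside 27.6% and 28.4% of all genes. The blue light receptors of chloroplast movement, PHOT1 and PHOT2, were higher. PHOT2 had 88.0, 86.7 and 96.9 FPKM at day 7 and 28.7, 26.8 and 33.5 FPKM at day 1 (log2 difference 1.58 ± 0.21, adjusted p = 3.65e-06). Phytochrome PHYA, the receptor of far-red light, was lower, with 16.2, 15.7 and 16.4 FPKM at day 7 and 28.8, 32.2 and 32.8 FPKM at day 1. The cryptochrome Cry1b was higher, and CO3, a CONSTANS relative, was lower at -1.06 ± 0.26. Of 7 flowering genes tested, SPL-CNR was higher (0.52 ± 0.20, lost without day 7 replicate 1 or day 1 replicate 3). SP2G was lower, with 0.0511, 0 and 0 FPKM at day 7 and 2.06, 1.22 and 0.984 FPKM at day 1. The flowering repressor SP5G, J and FUL1 were not called, and SFT, the tomato florigen, stayed at or below 1.09 FPKM and was not tested.

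Of all 331 list members tested, 98 were higher (29.6% of them, against 17.4% of all genes) and 142 lower (42.9%, against 42.4%). Under scaling 124 were higher and 114 lower, beside 27.6% and 28.4% of all genes. The lists were chosen with earlier results of these data known, so these shares describe the lists and support nothing beyond them.

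The same contrast in Guozhen No.1 leaves at 9 mM used other libraries, and its calls ran alongside. It called 2685 genes higher (13.6%) and 9521 lower (48%), 61.6% of those tested. Of these, 2321 were also higher in Guizhen (67.2% of the Guizhen list, 86.4% of the Guozhen list) and 7726 also lower (91.9% and 81.1%), and 32 genes were called in opposite directions. Guizhen leaves at 1 mM had 4528 genes higher (22.9%) and 7200 lower (36.3%), 59.2% of those tested. With the 9 mM leaves of the same cultivar they shared 2725 higher genes (78.9% of the 9 mM list, 60.2% of the 1 mM list) and 6124 lower ones (72.9% and 85.1%), with 71 in opposite directions. Antenna, carbon fixation, senescence and pathogenesis-related lists gave the same counts of higher and lower members in Guizhen at 9 mM, in Guizhen at 1 mM and in Guozhen at 9 mM: 13 and 0, 3 and 0, 0 and 3, and 0 and 6.

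Whether the day effect differed between cultivars was tested directly. At 9 mM the difference of the day effect, Guizhen minus Guozhen, was called for 84 genes (0.424%), 60 positive (0.303%) and 24 negative (0.121%). The count moved to 34 without day 7 replicate 1, 82 without day 7 replicate 2, 37 without day 7 replicate 3, and 53, 51 and 118 without day 1 replicates 1, 2 and 3. Of the list members, 1 of 331 (0.302%) was called, near the share of all genes. It was CYP707A1, a hydroxylase that breaks abscisic acid down, with 11.2, 8.69 and 6.87 FPKM at day 7 and 8.65, 6.70 and 10.3 FPKM at day 1 in Guizhen, and means of 5.80 ± 1.16 FPKM at day 7 and 15.5 ± 1.31 FPKM at day 1 in Guozhen (SD, n = 3 each). The difference of the day effects was 1.34 ± 0.24 (adjusted p = 0.0149). Among called loci that reached 10 FPKM in a leaf library at 9 mM or of Guizhen, the unnamed Solyc01g089890 had the most negative difference. At 9 mM it fell in Guizhen to 0.241, 0.122 and 0.0857 FPKM at day 7, against 22.3, 28.9 and 17.1 FPKM at day 1. In Guozhen at 9 mM its means were 0.468 ± 0.532 FPKM at day 7 and 0.783 ± 0.328 FPKM at day 1 (difference of day effects -4.02 ± 0.52, adjusted p = 0.000865). At 1 mM the locus fell in Guozhen too, with means of 0.475 ± 0.629 FPKM at day 7 and 13.7 ± 2.32 FPKM at day 1 (SD, n = 3 each).

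Between nitrogen levels in Guizhen, the difference of the day effect, 9 mM minus 1 mM, was called for 316 genes (1.59%), 54 positive (0.273%) and 262 negative (1.32%). That count is not stable. It was 48, 56 and 12 without day 7 replicates 1, 2 and 3, and 109, 563 and 10 without day 1 replicates 1, 2 and 3, and scaling gave 77 positive and 70 negative genes. Of the list members 6 of 331 (1.81%) were called, near the share of all genes. GAME1 fell at 9 mM, while at 1 mM its means were 56.1 ± 27.2 FPKM at day 7 and 62.6 ± 9.997 FPKM at day 1 (SD, n = 3 each), a difference of the day effects of -2.49 ± 0.57 (adjusted p = 0.0427), called in 3 of 11 alternatives. AMT1-2 rose at 9 mM, while at 1 mM its means were 5.05 ± 2.61 FPKM at day 7 and 5.47 ± 1.95 FPKM at day 1 (SD, n = 3 each), a difference of 2.20 ± 0.55 (adjusted p = 0.04996), called in 1 of 11 alternatives. The anthocyanin branch, chosen after its values were seen, was lower in 6 of 6 members at 9 mM and in 0 of 6 at 1 mM in Guizhen. Of all genes, 42.4% and 36.3% were lower there. Guozhen gave the same counts, 6 lower at 9 mM, beside 48% of all genes, and 0 lower at 1 mM, beside 8147 of 19815 genes. The nitrogen difference in Guizhen itself, -2.42 to -1.60 on the log2 scale, was not called for any of the 6 (adjusted p = 0.0636 to 0.121).

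**Figure D5:**
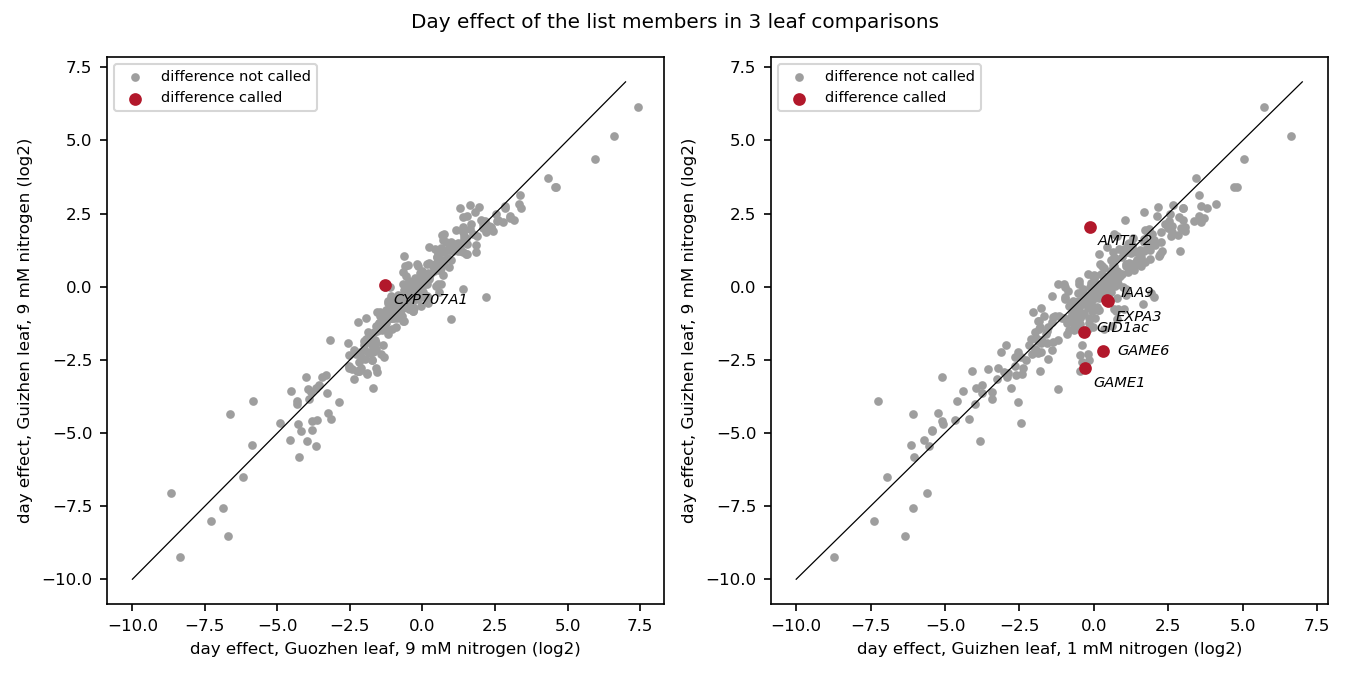
Day effect of the list members tested in Guizhen leaf at 9 mM (y axis, log2) against that in Guozhen leaf at 9 mM (left) and in Guizhen leaf at 1 mM (right), 1 point a gene, with the line of equal effects. Most points lie along the line, and the members whose difference was called, 1 on the left and 6 on the right, are named in red.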

How the data were processed

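RNA was sequenced from leaves and roots, and the 6 Guizhen leaf libraries at 9 mM nitrogen of days 7 and 1 form the comparison. Per the labels' protocols, RNA came from a Tiangen plant kit and libraries from an NEBNext Ultra kit. The authors deposited FPKM in 1 table of 29898 genes (28005 with a locus number, 1893 newly assembled) and 48 libraries. The submitters' processing notes name the aligner HISAT2 and the assembler StringTie. Versions, build, annotation and strand setting are not given in the sources used here. FPKM are not counts, and without read numbers the counting error of low values is unknown: an exact 0 can be a failed estimate, and a 0 in some of the 6 libraries occurred for 70 of the 9432 genes that averaged 10 FPKM or more. No 2 libraries were identical.

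Genes that reached 1 FPKM in 3 or more of the 24 leaf libraries were kept. The model for log2(FPKM + 1), in limma 3.58.1 under R 4.3.3, had 1 mean for each of 8 leaf groups and a variance trend, which assumes that all groups share their spread. Benjamini-Hochberg adjustment ran over all 19815 genes tested. An exact permutation test of 3 against 3 libraries cannot reach a p below 0.1 and was not used.

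The members and lists were chosen with earlier results of these data known. For 378 preset locus numbers, 374 were in the table, all 378 symbols lay on the same chromosome in the RefSeq gene table (41476 entries, assembly SLM_r2.1), and 2 of 6025 pairs of loci ran in another order. Some pairings were set with positions in that table in view, so that the order is a check in part only. Named by rule were lists of up to 6 members whole, otherwise the 3 most abundant members and the largest called change in each direction, and, among called genes whose days did not overlap and with a higher mean of 10 FPKM or more, the 10 largest named changes each way and the 2 largest of all loci each way. Further members and the sub-groups of a list (such as receptors, the synthesis branch or the anthocyanin branch) were chosen after their values were seen. Alternatives were a pseudocount of 0.1, no filter, median-of-ratios scaling, fits on the libraries of the comparison alone, a replicate block, and leaving out each library. Tables and figures were made in Python 3.11.15 with matplotlib 3.10.9.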

Additional observations from a re-analysis of the deposited data

Results flagged for a closer look

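For 7 list members the day effect differed between cultivars or between nitrogen levels by the test of the difference itself. The cultivar difference (Guizhen minus Guozhen, 9 mM) of CYP707A1 was 1.34 ± 0.24 and was called in 9 of 11 alternatives, with an adjusted p of 0.00696 to 0.0572 over them. The other 6 differences are between 9 mM and 1 mM in Guizhen (9 mM minus 1 mM) and were called in few alternatives. They were -1.22 for GID1ac (called in 4 of 11, adjusted p 0.0334 to 0.109), -0.88 for EXPA3 (2 of 11, 0.043 to 0.13), 2.20 for AMT1-2 (1 of 11, 0.041 to 0.117), -0.98 for IAA9 (2 of 11, 0.0298 to 0.13), -2.50 for GAME6 (2 of 11, 0.0462 to 0.124) and -2.49 for GAME1 (3 of 11, 0.0419 to 0.117). The direction held in all 11 alternatives for each of the 7.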

How the results depend on the processing

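Of the 11857 calls of the day effect, 89.3 to 90.4% were made again in the same direction with 1 library left out and 76.6% under median-of-ratios scaling, and 0 were made in the opposite direction in any alternative run. No pairing by replicate number was seen, with same-numbered deviations correlated at 0.0181 to 0.0379 and the others at -0.0814 to 0.0546. With 3 libraries a day this cannot exclude a pairing. The replicate block left the day effect at 11728 calls. Differences between day effects were less stable. The cultivar difference (84 genes) ran from 34 to 118 with 1 of the 6 Guizhen libraries at 9 mM left out, and libraries of the other groups were not left out. The nitrogen difference (316 genes) ran from 10 to 563 in that way, and was 99 with no filter, 147 under scaling, 46 with only the libraries of its comparison and 120 under the replicate block. Of 335 single genes read, 249 kept the same call under all alternatives. Under scaling DET1 turned to 0.32 and was called, and COI1 and IAA27 turned to 0.0028 and 0.0531, uncalled. The medians of 3 lists changed sign. That of light signalling was 0.32 under scaling and ran from -0.0943 to 0.0857 with 1 library left out, that of nitrogen ran from -0.16 to 0.4641 with 1 library left out, and that of gibberellin was 0.0556 under scaling. The cause was not tested. Reads per library are unknown, which limits values near 0.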
